A study of Oryzias latipes with 48 samples.

Results

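The daily timing of gene expression was compared between the summer solstice and the autumn equinox in the brain of medaka (Oryzias latipes), a small freshwater fish whose breeding follows the season. The comparison used 24 of the 48 RNA-seq libraries of the series, chosen by the season in their labels: 12 from summer and 12 from autumn. Fish of both seasons were kept outdoors under natural light and temperature, and the dissected block was the hypothalamus and pituitary together with the ventral part of the telencephalon. In each season 2 libraries were made at each of the clock hours 2, 6, 10, 14, 18 and 22, over 1 cycle of 24 h. The labels name no other treatment, and give no strain, sex or age.

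The labels do not say how many fish a library holds, or whether the 2 libraries of an hour are from different fish. P-values therefore rest on the spread between libraries, which may be technical. Season cannot be told apart from the year, the sampling day or a library batch that went with it. Markers of the labelled tissue were present. Summed pituitary hormone transcripts lay between 2222 and 3587 FPKM in the summer libraries and between 2306 and 4346 in the autumn libraries. The hypothalamus list had 11 of 12 members above 0 in each season, the ventral telencephalon list all 9. Retina and pineal markers summed to 2.81 to 19.4 FPKM in summer and 2.50 to 11.5 in autumn, and red blood cell markers to 931 to 2397 and 913 to 1764. No tested marker of hypothalamus, telencephalon, neurons, glia, macrophages, endothelium, blood cells, retina or pineal gland had a daily rhythm in both seasons. Markers that averaged under 1 FPKM were not tested. Among others, this left 1 of 11 for retina and pineal gland, 6 of 13 for red blood cells and 8 of 12 for macrophages. The part of such cells in the results was not tested. In bulk tissue, fewer cells of a type and less RNA per cell cannot be told apart.

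The vertebrate circadian clock is a feedback loop of transcription factors. CLOCK or NPAS2 pairs with a BMAL protein and activates genes that carry E-box motifs, among them the period and cryptochrome genes, whose proteins then repress the pair. A second arm joins the loop through receptors that bind the Bmal1 promoter in mammals: the ROR receptors activate it, and NR1D1 and NR1D2 repress it. Light resets the loop each day, so dawn and dusk are the time cues that move between seasons. For the place in the labels, sunrise moved from 4:38 at the June solstice to 5:40 at the September equinox, 1.03 h later in Japan Standard Time. Sunset moved the other way, from 19:08 to 17:48, a change of -1.34 h, and solar noon by -0.15 h. Day length was 14.5 h in summer and 12.1 h in autumn. These times were computed, and no light or temperature record was used.

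A cosine of 24 h was fitted to each gene in each season on log2(FPKM + 1), where FPKM is the number of fragments scaled for transcript length and for the total of the library. The fit gives a peak hour and an amplitude, the height from the daily mean to the peak in log2 units. A shift is the autumn peak hour minus the summer peak hour, taken the shorter way around the 24 h clock. Positive values are thus later in autumn by the clock. For shifts of many hours, later or earlier is a matter of this convention. Of 16597 genes tested, 1719 (10.4%) had a daily rhythm in summer, 2019 (12.2%) in autumn and 835 (5.03%) in both, at an adjusted p below 0.05 in limma. Only these 835 genes have a peak hour to compare. The shift differed from 0 in 91 of them (10.9%), 71 later (8.5%) and 20 earlier (2.4%) in autumn. Of the 91, 59 had an amplitude under 0.3 in a season, and 67 shifted by more than 3 h. These counts depend on the fit: 221 shifts passed with a 12 h harmonic in the model and 28 with a straight line over the sampling day. Over 1 cycle such a line overlaps with the 24 h curve, so it lowers the precision of the fit with or without a drift. Calls lost with it therefore do not show a drift. The line took hour 2 as the first hour, and the labels do not say when sampling began.

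Most activators of the clock peaked later in autumn. All 9 members of this list were tested and all 9 were rhythmic in both seasons. All 9 fitted shifts were positive, and 7 passed the test against a background of 8.5% later calls. Their median shift was 1.79 h, and that of the 835 genes was 0.49 h. The individual shifts ran from 0.72 to 2.00 h. Activators were also timed more precisely, with a median SE of 0.40 h against 1.07 h in the 835 genes. Of the 39 genes with an amplitude of at least 0.8 in both seasons, which include activators, 8 were called later. The median shift of those 39 was 0.56 h.

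LOC101159313, the BMAL1-type gene (aryl hydrocarbon receptor nuclear translocator-like protein 1), encodes a partner of CLOCK. Its 2 summer libraries read 6.19 and 7.29 FPKM at hour 2, 4.84 and 4.67 at hour 6, 10.5 and 9.71 at hour 10, 19.58 and 19.7 at hour 14, 21.87 and 23.26 at hour 18, and 10.74 and 11.78 at hour 22. The autumn libraries read 10.12 and 8.63, 5.45 and 4.71, 8.17 and 8.04, 18.92 and 18.25, 28.63 and 30.77, and 20.33 and 20.43 FPKM at the same hours. At hours 18, 22 and 2 both autumn libraries lay above both summer libraries, and at hours 10 and 14 both lay below. The fitted peak moved from 16.57 to 18.30, a shift of 1.73 h (SE 0.225, limma adjusted p = 1.9e-05). Measured from sunset, the peak stood at -2.57 h in summer and 0.50 h in autumn.

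LOC101172430, the NPAS2-type gene, can take the place of CLOCK beside BMAL1 in mammals. It stood at 10.58 and 10.18 FPKM at hour 14 of summer and 10.49 and 10.25 at hour 18, a flat top across the afternoon. In autumn it read 8.7 and 9.04 FPKM at hour 14 and 14.68 and 14.83 at hour 18, so the top was at hour 18 alone. At hour 22 the pairs were 5.99 and 5.53 in summer and 9.08 and 9.06 in autumn. The seasons did not overlap at these 3 hours. The peak moved from 15.88 to 17.73, by 1.85 h (SE 0.255, limma adjusted p = 2.9e-05).

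LOC101174183, a BMAL2-type gene, read 18.96 and 19.35 FPKM at hour 18 of summer and 9.8 and 9.36 at hour 22. In autumn these hours were close to each other, with 20.58 and 20.76 FPKM at hour 18 and 19.75 and 18.93 at hour 22. Its peak moved from 17.52 to 19.38, by 1.86 h (SE 0.275, limma adjusted p = 6.8e-05). The second BMAL2-type gene, LOC101175041, peaked late in the evening, at 21.07 in summer and 23.03 in autumn. It read 6.71 and 8.11 FPKM at hour 18 of summer against 4.36 and 5.16 in autumn, and 3.45 and 3.04 at hour 2 of summer against 6.24 and 5.45 in autumn. Its shift was 1.96 h (SE 0.573, limma adjusted p = 0.034).

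Both CLOCK-type genes passed as well. LOC101165450 peaked at 16.26 in summer and 18.05 in autumn, a shift of 1.79 h (SE 0.401, limma adjusted p = 0.0056). The gene annotated as clock peaked at 19.76 and 21.76, a shift of 2.00 h (SE 0.637, limma adjusted p = 0.046). In autumn its highest values, 14.17 and 14.67 FPKM, fell at hour 22, and in summer 13.02 and 11.32 FPKM at hour 18 led 12.06 and 11.11 at hour 22, where libraries of the 2 hours overlap. Calls for clock and for LOC101175041 are near the threshold and did not hold in every fit that left out 1 library. clock passed in 9 of 24 such fits, with shifts from 1.54 to 2.36 h. LOC101175041 passed in 18 of 24, with shifts from 1.66 to 2.39 h.

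Among the ROR receptors, the ROR-beta-like gene LOC101170052 had the widest daily range and a shift that passed. It read 48.47 and 47.9 FPKM at hour 14 of summer and 38.77 and 37.53 at hour 18. In autumn the order of these hours was turned around, with 39.53 and 40.65 at hour 14 and 51.23 and 52.25 at hour 18. The peak moved from 14.57 to 16.02, by 1.45 h (SE 0.245, limma adjusted p = 0.00036). The ROR-beta gene LOC101164545 had a fitted shift of 1.78 h that missed the threshold (SE 0.728, limma adjusted p = 0.11). The ROR-alpha gene LOC101172927 peaked in the morning, at 9.27 and 9.99, and its shift of 0.72 h (SE 0.702) was within its error.

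**Figure D1:**
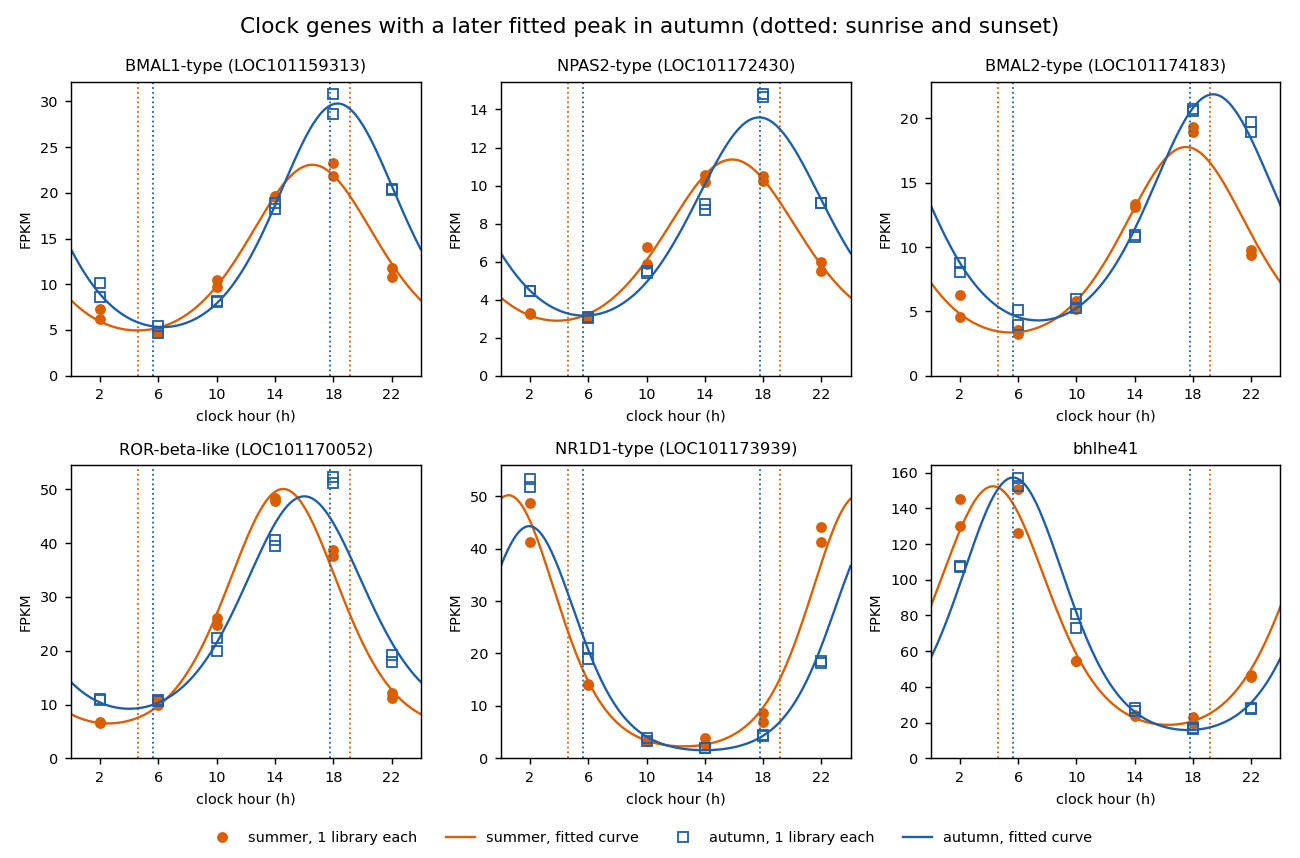
FPKM (vertical axes) against clock hour (horizontal axes, h) for 6 clock genes whose fitted peak was later in autumn, with 1 point per library (filled circles summer, open squares autumn), the fitted 24 h curve of each season, and dotted lines at sunrise and sunset of each season in its colour. At hour 22 both autumn libraries of LOC101159313 stand at 20.33 and 20.43 FPKM and both summer libraries at 10.74 and 11.78.

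The activators were then set beside the move of the sun. All 9 activators differed from the sunset shift of -1.34 h, as did 344 of the 835 genes (41.2%). Among the 39 genes with an amplitude of at least 0.8 in both seasons, activators included, 30 did. LOC101159313 and LOC101172430 also differed from the sunrise shift of 1.03 h, both in the later direction (limma adjusted p just under 0.05 and 0.044). In either direction, 10.5% of the 835 genes and 5 of those 39 differed from it. The 95% intervals of 6 activators held the sunrise shift. The shifts of LOC101159313, LOC101174183, LOC101172430 and LOC101170052 passed in all 24 fits that left out 1 library and in all 12 other alternatives. LOC101165450 missed the threshold without replicate 1. LOC101175041 missed it without replicate 1, with all 48 libraries in the fit and with a straight line in the model. clock missed it in 5 of 12 alternatives: without replicate 1, without replicate 2, under median-ratio scaling, under quantile normalization and with a nested F test, which compares a common peak hour with free peak hours.

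The repressors of the clock were less uniform. Of 20 members tested, 17 were rhythmic in both seasons, 13 with a positive and 4 with a negative fitted shift. Shifts of 2 passed, both later, against a background of 8.5% later calls in the 835 genes. The median of the 17 was 0.33 h, below the 0.49 h of the 835 genes. The individual values ran from -0.53 to 1.42 h, so the range ended below the median of the activators. The difference between the activator and the repressor list was not tested. LOC101161338, LOC101156434 and LOC101163864 lacked a called rhythm in at least 1 season and have no shift here.

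bhlhe41 encodes a repressor that acts on E-box motifs (DEC2 in mammals). In summer its libraries read 145.23 and 130.01 FPKM at hour 2, 150.57 and 126.23 at hour 6 and 54.36 and 54.34 at hour 10. In autumn they read 107.86 and 107.3, 152.39 and 156.88, and 80.64 and 72.91. At hour 22, before the peak, it read 46.39 and 45.39 FPKM in summer and 28.37 and 27.5 in autumn. Hours 2 and 6 overlapped in summer, and in autumn both libraries of hour 6 were above those of any other hour. The peak moved from 4.28 to 5.65, by 1.38 h (SE 0.176, limma adjusted p = 1.9e-05). Measured from sunrise, it stood at -0.35 h in summer and -0.01 h in autumn, and the interval of the shift, 1.01 to 1.74 h, held the sunrise shift (limma adjusted p = 0.22 for the difference).

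The list holds a pair of NR1D1-type genes, both highest at night. LOC101173939 read 41.33 and 44.07 FPKM at hour 22 of summer but 18.14 and 18.54 in autumn, and at hour 2 it read 48.79 and 41.26 in summer and 53.38 and 51.68 in autumn. Its peak moved from 0.53 to 1.95, by 1.42 h (SE 0.226, limma adjusted p = 0.00019), a call that a straight line in the model ended. The other copy, LOC101174341, read 109.93 and 113.5 FPKM at hour 22 of summer and 98.67 and 94.77 in autumn. Its early evening was higher in autumn, with 60.51 and 65.06 FPKM at hour 18 against 27.2 and 30.32 in summer, and so was hour 2, with 125.66 and 122.19 against 93.7 and 93.14. Its fitted shift was 0.33 h (SE 0.383, limma adjusted p = 0.60). The difference between the copies was not tested, and related copies may share reads, although no gene named here had the values of another.

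No shift of a period gene passed. per1 was highest at hour 6 in both seasons, with 28.98 and 28.28 FPKM in summer and 40.82 and 35.34 in autumn. Its fitted peaks were 4.67 and 4.92, a shift of 0.25 h whose 95% interval ran from -0.50 to 1.01 h and so ended just short of the sunrise shift. The PER3-type gene LOC101159817 peaked at 7.58 and 8.11, a shift of 0.53 h (SE 0.195, limma adjusted p = 0.082). per2 peaked at 12.17 and 13.15 with a shift of 0.98 h (SE 0.67), which holds both 0 and the sunrise shift. The PER2-type gene LOC101161338 was higher in the autumn evening, with 20.74 and 22.66 FPKM at hour 18 against 7.91 and 8.22 in summer, and a 24 h cosine did not give it a rhythm in autumn.

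The CIART-type genes, which encode a repressor of CLOCK and BMAL1, had fitted shifts near or below 0. LOC101157319 peaked at 4.49 in summer and 4.50 in autumn, a shift of 0.01 h with an interval from -0.61 to 0.63 h that holds neither the sunrise nor the sunset shift. It differed from the sunrise shift (limma adjusted p = 0.033) and from the sunset shift (adjusted p = 0.0017). LOC101172421 read 39.3 and 39.93 FPKM at hour 2 and 43.14 and 38.7 at hour 6 in summer, and 46.93 and 53.24, then 50.84 and 44.49 in autumn, so these hours overlap within each season. Its shift was -0.53 h (SE 0.45), which also differed from the sunrise shift (limma adjusted p = 0.032). The CIPC-type gene LOC101170972, at -0.51 h (SE 0.41), was the third repressor to do so (limma adjusted p = 0.025). Its highest mean was at hour 2 in summer, where hours 2 and 6 overlapped, and at hour 6 in autumn, opposite to the fitted shift. At hour 18 it read 2.21 and 2.32 FPKM in summer and 6.09 and 5.69 in autumn. LOC101172421 also rose at hour 18, from 1.95 and 2.63 to 8.14 and 7.79. A peak hour alone does not describe these changes of the curve. The other CIPC-type gene, LOC101157237, had a shift of 0.94 h (SE 0.36) that missed the threshold (limma adjusted p = 0.095).

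The cryptochrome genes, whose proteins repress CLOCK and BMAL, had shifts between -0.26 and 0.93 h, and none passed. LOC101164536 peaked near dusk, at 17.43 and 17.92, with its highest summer values at hour 18, 81.53 and 64.96 FPKM. In autumn it read 43.17 and 44.78 FPKM at hour 14, 39.38 and 41.98 at hour 18, and 38.38 and 46.22 at hour 22, so hour 22 overlapped both others, while hour 14 lay above hour 18. LOC101174986 peaked near midday, at 12.46 and 12.22. In it hour 10 led in summer, 7.95 and 8.9 FPKM against 3.79 and 3.8 at hour 14, and in autumn hours 10 and 14 overlapped, 5.79 and 7.2 against 6.2 and 6.34. The fitted shift was -0.25 h (SE 0.68).

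**Figure D2:**
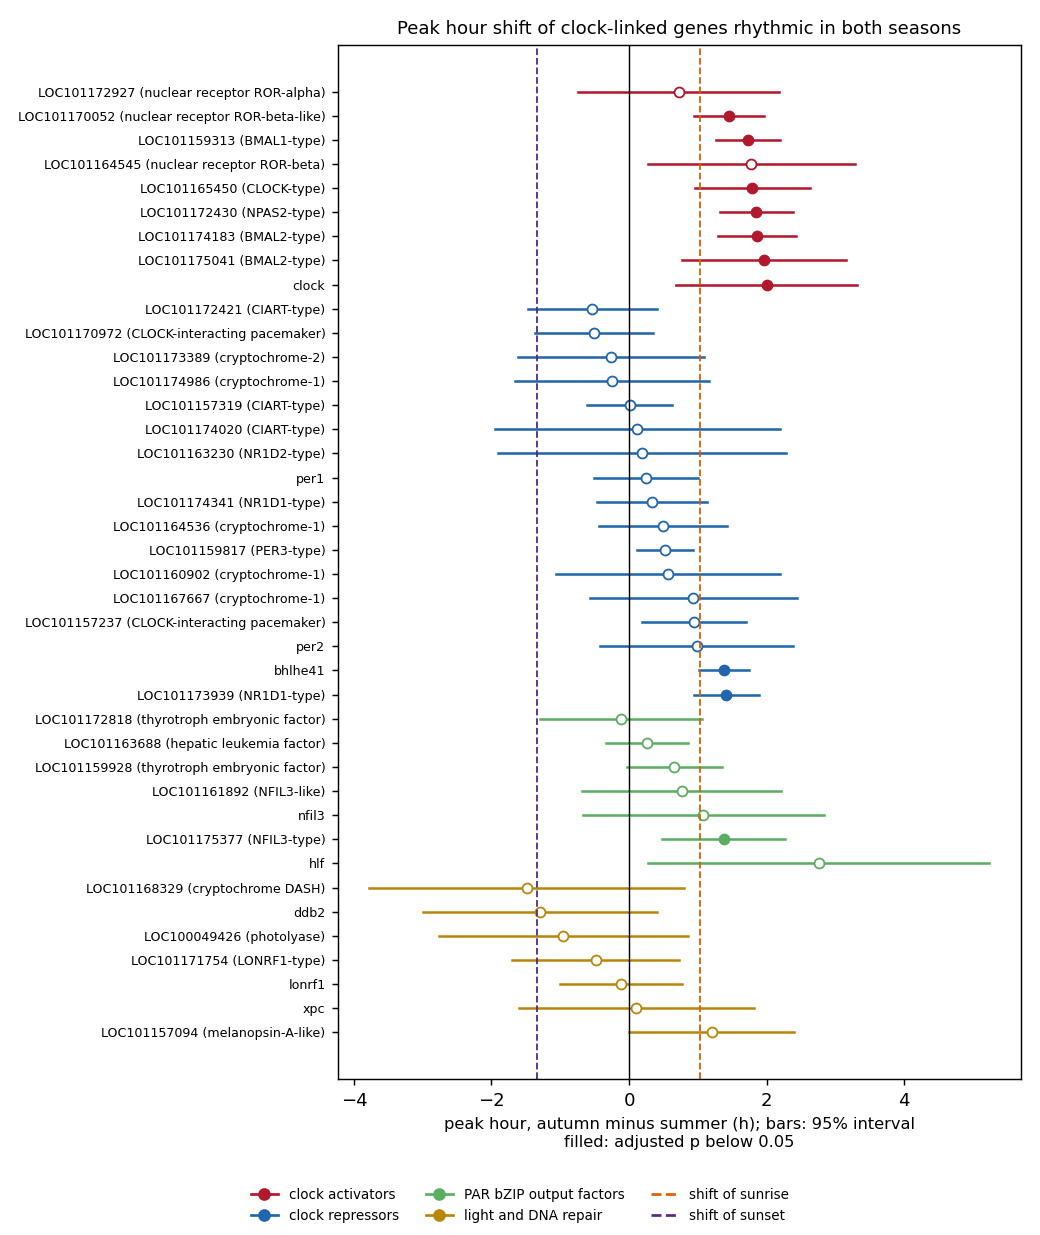
Peak hour shift in hours, autumn minus summer (horizontal axis), for each member of 4 gene lists that was rhythmic in both seasons (rows), with the 95% interval as a bar, filled points where the adjusted p was below 0.05, and dashed lines at the shift of sunrise and of sunset. The 9 activators lie between 0.72 and 2.00 h, and the 17 repressors between -0.53 and 1.42 h.

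PAR bZIP factors such as TEF and HLF carry the phase of the clock to output genes as activators at D-box motifs. NFIL3, a bZIP factor outside the PAR group, represses through the same motifs and was put in the same list. All 8 members of this list were tested and 7 were rhythmic in both seasons, with 6 positive shifts. The shifts ran from -0.11 to 2.76 h with a median of 0.76 h. The largest was that of the gene annotated as hlf, which did not pass. hlf was highest at hour 18 in both seasons. At hour 22 it read 29.57 and 31.61 FPKM in summer and 37.97 and 36.25 in autumn. Against a background of 10.9% of calls in the 835 genes, 1 of the 7 shifts passed, that of the NFIL3-type gene LOC101175377. It read 17.8 and 17.98 FPKM at hour 14 and 14.68 and 16.02 at hour 18 in summer, and 14.83 and 14.86, then 30.59 and 32.59 in autumn. Hour 18 was above hour 14 in both autumn libraries and below it in both summer libraries. The peak moved from 15.07 to 16.44, by 1.37 h (SE 0.431, limma adjusted p = 0.043), a call that passed in 11 of 24 fits without 1 library, with shifts from 1.17 to 1.67 h. It missed the threshold with the nested F test, with a straight line in the model, without replicate 1 and without replicate 2. The HLF-type gene LOC101163688, whose amplitude of 1.81 in summer and 1.73 in autumn was the largest of the list, peaked at 3.02 and 3.28, and its shift of 0.26 h (SE 0.29) did not pass. The TEF-type genes LOC101159928 and LOC101172818 had shifts of 0.66 h (SE 0.33) and -0.11 h (SE 0.57).

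Genes of light response and DNA repair were tested next. Of 15 members 12 were tested and 7 were rhythmic in both seasons. Fitted shifts were positive in 2 and negative in 5, from -1.49 to 1.199 h with a median of -0.49 h, and none passed. lonrf1, a RING-finger protein, was highest at hour 10 in summer, 33.31 and 32.66 FPKM, and its hours 10 and 14 were close to each other in autumn, 32.12 and 33.99 against 32.1 and 31.01. Its fitted peaks were 12.78 and 12.66 (shift -0.11 h, SE 0.43), and its shift did not pass the test against that of sunrise (limma adjusted p = 0.088). The LONRF1-type gene LOC101171754 was lower at hour 10 in autumn, 17.57 and 20.15 FPKM against 28.45 and 32.41 in summer. At hour 14 it was higher in autumn, 27.65 and 29.63 against 24.28 and 22.84. At hour 18 it was lower in autumn again, 13.01 and 12.5 FPKM against 24.84 and 22.38, and its shift was -0.49 h (SE 0.59).

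ddb2, which recognises UV damage in DNA, likewise read 2.85 and 2.65 FPKM at hour 18 of autumn and 6.18 and 5.99 in summer. The gene annotated as photolyase, LOC100049426, whose product repairs UV damage with the energy of light, read 6.98 and 6.03 FPKM at hour 18 of autumn and 9.03 and 8.75 in summer. At that hour the autumn libraries came after the computed sunset of 17:48 but before the end of civil twilight at 18:13. The summer libraries came before sunset, and a link of these values to light was not tested. Shifts of ddb2 and photolyase were -1.29 h (SE 0.82) and -0.95 h (SE 0.87), with intervals that held 0 and the sunset shift. The melanopsin-A-like gene LOC101157094 was highest at hours 2 and 6 in summer, and had a shift of 1.199 h (SE 0.58, limma adjusted p = 0.17).

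**Figure D3:**
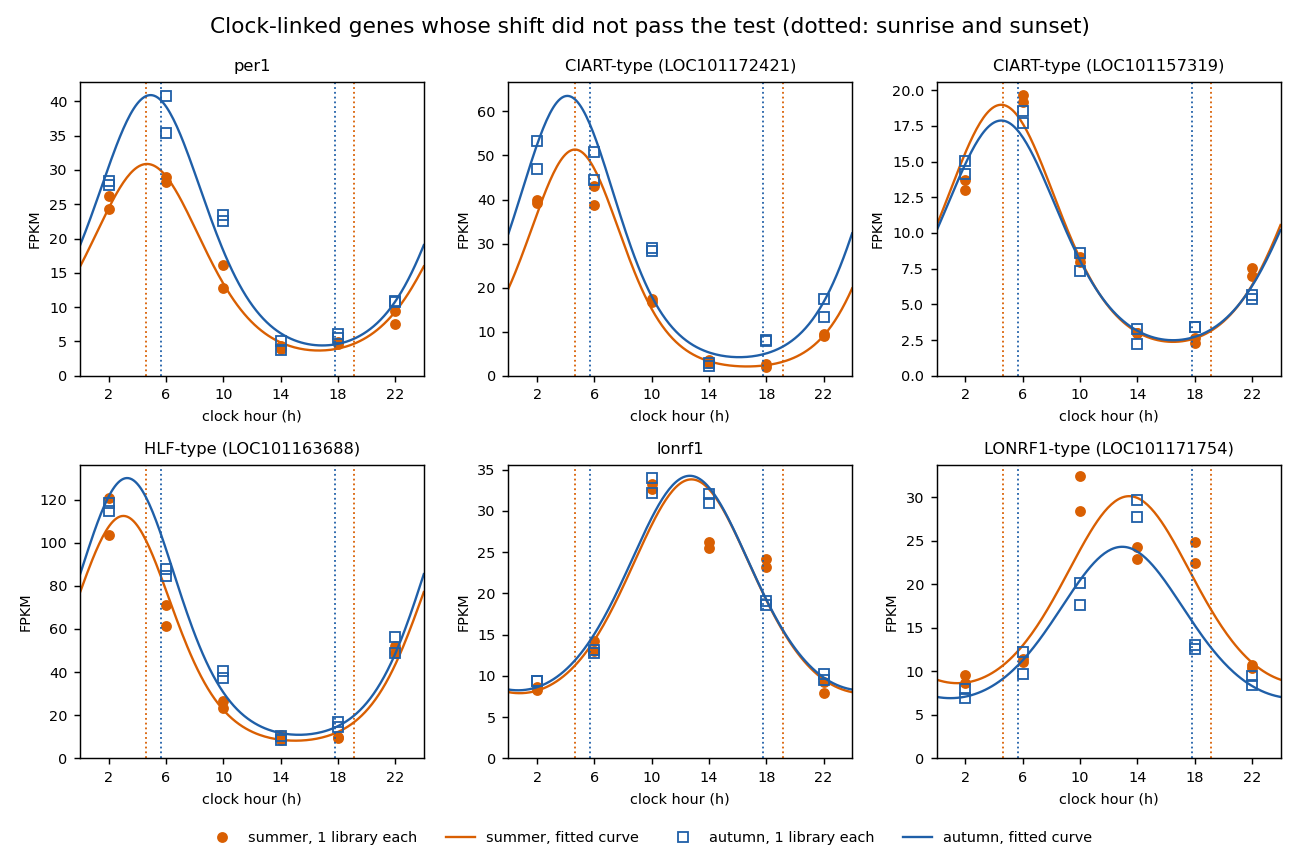
FPKM (vertical axes) against clock hour (horizontal axes, h) for 6 clock-linked genes whose shift did not pass the test, drawn as in the plot of the shifted genes, with 1 point per library and dotted lines at sunrise and sunset. For LOC101157319 the summer and autumn curves peak at 4.49 and 4.50, and for LOC101171754 the autumn libraries fall to 13.01 and 12.5 FPKM by hour 18.

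Temperature-linked genes were followed because the water warms and cools with the day outdoors. Of 33 members 29 were tested and 9 were rhythmic in both seasons, 8 with a positive shift, and none passed. The median was 1.16 h. cirbp, a cold-inducible RNA-binding protein, had fitted peaks at 20.94 and 22.10 with a shift of 1.16 h (SE 1.09). Its libraries were highest at hour 22 in summer, 1216.32 and 1121.52 FPKM, but at hour 18 in autumn, 1478.12 and 1421.44. The highest sampled hour thus moved opposite to the fitted peak. The DNAJA4-type gene LOC101166714, a co-chaperone, read 24.63 and 27.81 FPKM at hour 18 of summer and 15.78 and 14.36 at hour 14, and in autumn these hours were close, at 20.62 and 20.69 against 21.57 and 20.79. At hour 22 it was higher in autumn, with 10.77 and 10.46 FPKM against 2.54 and 3.4 in summer, and its fitted shift was 1.74 h (SE 0.68, limma adjusted p = 0.10). hsf1, the master regulator of the heat shock response, had the only negative value, a shift of -2.78 h (SE 1.26, limma adjusted p = 0.15). In summer it read 94.45 and 83.25 FPKM at hour 18 and 89.77 and 78.88 at hour 22, and these hours overlapped. In autumn both libraries of hour 14, 59.66 and 69.23 FPKM, were above those of any other hour.

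Other lists held small numbers of genes with a rhythm in both seasons. Over all genes tested 5.03% had one, and 10.9% of those 835 genes had a called shift. Of 15 glucocorticoid-responsive genes tested, 3 were rhythmic in both and 1 passed, the SGK1-type gene LOC101162537, which encodes a kinase induced by glucocorticoids. It led at hour 10 in summer, 39.78 and 41.42 FPKM, and at hour 18 in autumn, 48.07 and 53.04, and its peak moved from 11.82 to 15.18 (3.36 h, SE 1.02, limma adjusted p = 0.039). In the NAD and energy list 2 of 14 were rhythmic in both. One was the hexokinase-1 gene LOC101156878 of glucose use, at 16.47 and 18.25 (1.79 h, SE 0.62, limma adjusted p = 0.069). Among pituitary hormones 1 of 10 was, lhb of luteinizing hormone, at 21.40 and 0.88 (3.47 h, SE 1.27, limma adjusted p = 0.079). Neuropeptides and activity-induced genes had 2 each of 31 and 28, and ER chaperones, cholesterol synthesis and clock kinases 1 each of 29, 27 and 10, with no call. No cell cycle or proteasome gene was rhythmic in both seasons.

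The largest called shifts among well expressed genes of clear amplitude were later ones outside the clock lists. LOC101163971, a very-long-chain 3-oxoacyl-CoA reductase of fatty acid elongation, led at hour 10 in summer, 37.5 and 41.45 FPKM, and at hour 18 in autumn, 40.51 and 37.29, where hour 22 overlapped it at 39.16 and 30.32. Its peak moved from 11.88 to 17.15, by 5.28 h (SE 0.967, limma adjusted p = 0.0008). Heme-binding protein 1, LOC101164857, went from a broad day plateau, between 22.08 and 26.92 FPKM over hours 6 to 18 of summer, to a peak of 39 and 38.03 at hour 18 of autumn. It moved by 4.51 h (SE 0.78, limma adjusted p = 0.00041). The calcium sensor hippocalcin-like 1, LOC101171795, moved from 13.95 to 17.77, with 37.66 and 37.52 FPKM at hour 18 of autumn and 25.23 and 26.59 in summer.

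Genes with an evening peak came next. arrestin domain-containing protein 3, LOC101166066, moved from 19.38 to 22.92 (3.54 h, SE 0.96). The monocarboxylate carrier slc16a6 moved from 19.69 to 23.18 (3.49 h, SE 1.08), and the oxysterol hydroxylase LOC101173499 from 19.15 to 22.16 (3.01 h, SE 0.85). LOC101157385, a carrier of large neutral amino acids, peaked after midnight, at 0.38 and 3.33 (2.95 h, SE 0.69). The ubiquitin ligase SH3RF1, LOC101161900, moved from 9.34 to 12.63 and the F-box gene fbxo25 from 1.89 to 4.53. With LOC101162537 these are the 10 largest later shifts by the rule. All 10 stayed positive when any 1 library was left out, but fbxo25 and slc16a6 passed in only 12 of those 24 fits, and LOC101162537 and LOC101161900 in 17. A straight line in the model ended 9 of the 10 calls, all but that of LOC101166066. The nested F test ended those of slc16a6, LOC101162537, LOC101161900 and fbxo25, and fbxo25 also missed the threshold under median-ratio scaling and with array weights. LOC101173499 missed it with all 48 libraries in the fit. Each of the 10 calls was lost without replicate 1, without replicate 2 or in both of these fits, which hold 1 library per hour.

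Only 2 earlier shifts met the same conditions. shbg, the carrier of sex steroids, peaked at 5.61 in summer and 1.93 in autumn (-3.69 h, SE 1.14, limma adjusted p = 0.042). Its summer libraries read 9.36 and 9.44 FPKM at hour 2 and 3.49 and 4.36 at hour 18, and its autumn libraries 19.85 and 16.41 and 14.37 and 10.95. The lowest hour was 18 in summer and 14 in autumn, where it read 7.07 and 6.31. The gene of transmembrane protein 116, LOC101158692, moved from 9.09 to 6.24 (-2.85 h, SE 0.87, limma adjusted p = 0.039). Both calls are near the threshold, and shbg passed in 12 and LOC101158692 in 16 of 24 fits without 1 library. Both also missed the threshold with the nested F test, with a straight line in the model, without replicate 1 and without replicate 2.

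Across all 835 genes, shifts formed a broad distribution with a small later tendency. The quartiles were -0.76 and 1.66 h around the median of 0.49 h, and 526 shifts (63.0%) were positive. The median SE of a shift was 1.07 h, about the size of the sunrise shift itself, so most genes cannot be placed singly. The 95% interval held 0 in 593 genes, the sunrise shift in 619, the sunset shift in 419, and all 3 values in 285. It held the sunrise shift and not 0 in 113, and the sunset shift and not 0 in 53. Tested against the moving sun, 88 genes (10.5%) differed from the sunrise shift, 65 of them earlier, and 344 (41.2%) from the sunset shift, 331 of them later. The median shift was 0.28 h without library 1 of autumn hour 10, and 0.84 and 0.76 h without library 1 or 2 of autumn hour 14.

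Sorted by time of day, night genes had the largest median shift. Windows were set by the mean of both peak hours, within 3 h of the mean sunrise (dawn) or sunset (dusk) and between them. The 193 dawn genes, near the hour that moved later by 1.03 h, had a median shift of 0.19 h (quartiles -1.204 and 0.953). The 272 dusk genes, near the hour that moved earlier by 1.34 h, had a median of 0.41 h (-0.85 and 1.73), which is opposite in sign to sunset. The 315 day genes had 0.59 h (-0.61 and 1.67). The 55 night genes had 1.92 h (0.89 and 3.20), 48 of them positive, with 15 called later and 1 earlier. Over the 835 genes 63.0% were positive, 8.5% were called later and 2.4% earlier. No test compares the windows, since genes are not independent replicates.

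In bins of 2 h the night hours again had the largest medians, but bins inside 1 window differed. The bin from hour 0 to 2 had a median of 1.87 h, with 13 positive and 6 negative shifts. Toward and after dusk the medians were 0.82 h from hour 18 to 20 and 1.56 h from hour 20 to 22. The bin from hour 14 to 16 stood at 0.23 h. All 29 genes with a mean peak from hour 22 to 24 had a positive shift, with a median of 2.25 h. Of these, 10 were called later, against 8.5% of the 835 genes. Genes from hour 4 to 6 had a median of 0.01 h (n = 83), and from hour 16 to 18 of -0.08 h (n = 123). The bin from hour 10 to 12 stood at 1.22 h (n = 81). Among genes with an amplitude of at least 0.3 in both seasons the dusk median was 1.08 h (n = 61) and the night median 1.64 h (n = 14). In this set the dawn median was 0.37 h (n = 61) and the day median 0.47 h (n = 113). The sign of the dawn median is not settled. With no amplitude minimum it was -0.01, -0.23 and -0.16 h without library 1 of autumn hour 2, library 1 of autumn hour 10 or library 2 of autumn hour 10. The dusk median ranged from 0.27 to 1.05 h without 1 library, with the extremes for library 2 of autumn hour 10 and library 1 of autumn hour 14.

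**Figure D4:**
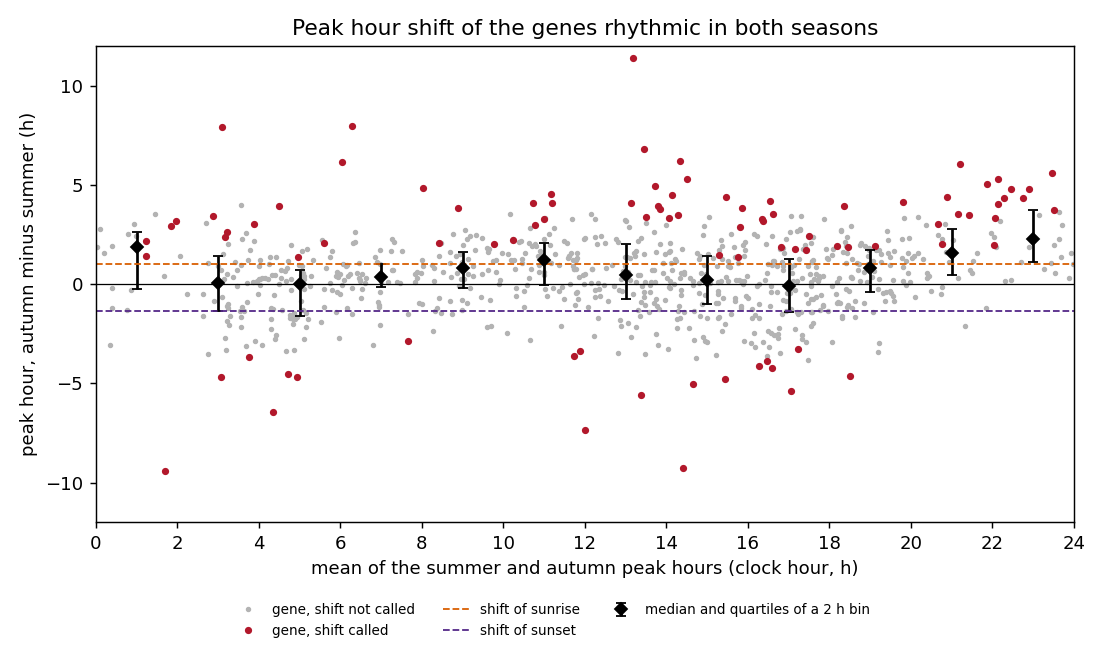
Peak hour shift in hours, autumn minus summer (vertical axis), of the 835 genes rhythmic in both seasons against the mean of their 2 peak hours (horizontal axis, clock hour), with called shifts in red, the median and quartiles of each 2 h bin in black, and dashed lines at the shift of sunrise and sunset. All 29 genes from hour 22 to 24 lie above 0, and the medians at hours 4 to 6 and 16 to 18 lie at 0.01 and -0.08 h.

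Rhythmic genes were spread over the day in other proportions in each season. Of the 1719 genes rhythmic in summer, 33.28% peaked from hour 16 to 20, against 22.59% of the 2019 rhythmic in autumn. From hour 0 to 4 the shares were 6.86% in summer and 16.64% in autumn, and from hour 20 to 24 they were 9.48% and 14.46%. These shares describe which genes passed in a season and were not tested. A rhythm called in 1 season alone rarely meant a tested difference: of 884 genes called in summer alone and 1184 in autumn alone, the curves of 1 and 2 differed between the seasons. In the other season 335 and 435 of them had an unadjusted p below 0.05.

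Among genes kept for a rhythm in both seasons, amplitudes were alike in size, which this selection itself favours. Genes called in 1 season alone, 884 in summer and 1184 in autumn, were left out. The fitted amplitude was larger in the called season in 884 and 1182 of them, which that selection also favours. The median amplitude of the 835 genes was 0.254 in summer and 0.252 in autumn, 414 higher and 421 lower in autumn. No amplitude difference passed in limma (0.0%), 51 had an unadjusted p below 0.05, and 10 passed with a 12 h harmonic in the model, 11 with all 48 libraries and 3 with array weights. For the clock activators the medians were 0.834 and 0.905, and for the repressors 1.10 and 1.07. The strongest activator by amplitude, LOC101170052, had 1.38 in summer and 1.14 in autumn (unadjusted p = 0.0059). LOC101159313 had 1.01 and 1.14 (unadjusted p = 0.045), so these 2 pointed in opposite directions. At this precision neither an amplitude gain nor a loss was detectable in the 26 clock activators and repressors rhythmic in both seasons. The repressors LOC101161338, LOC101156434 and LOC101163864, without a called rhythm in at least 1 season, were outside this test.

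**Figure D5:**
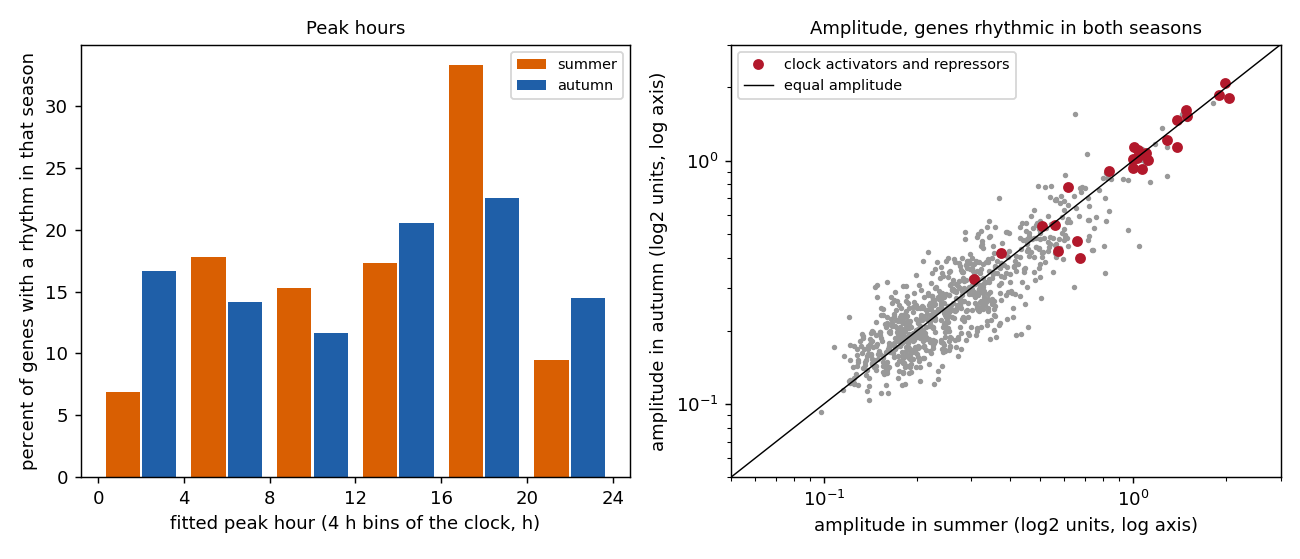
Left, percent of the genes rhythmic in a season (vertical axis) whose fitted peak fell in each 4 h bin of the clock (horizontal axis, h), summer orange and autumn blue. Right, amplitude in autumn against amplitude in summer in log2 units on log axes for the 835 genes rhythmic in both seasons, clock activators and repressors in red, with the line of equal amplitude. The bin from hour 16 to 20 holds 33.28% in summer and 22.59% in autumn, and points on the right lie on both sides of the line, 414 above and 421 below it.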

How the data were processed

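RNA of 24 libraries (2 seasons, 6 clock hours, 2 libraries each) was used. The authors deposited a table of FPKM values for 26167 genes, made with Bowtie2 2.2.5 and RSEM 1.2.12 per the submitters' processing notes. The libraries were poly-A selected and strand-specific, per the labels' protocols. The genome build and annotation were not given in the sources used here. FPKM sums per library lay between 331449 and 359311 and 9.38% of values were 0. The depth is unknown, since read counts were not used and ratios of low values gave no clear steps (2.44 to 3.88 times the median bin). Both libraries of an hour correlated by 0.982 to 0.988 across genes, which are not replicates. Of the IDs, 25080 matched a RefSeq table, used for names only.

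Genes that averaged 1 FPKM or more were fitted on log2(FPKM + 1) with limma 3.58.1 in R 4.3.3, with a mean, cosine and sine of 24 h per season, an intensity trend and 18 residual degrees of freedom. Rhythms and differences of the curve were F tests. Shifts and amplitude differences were two-sided Wald tests with a delta-method SE over genes rhythmic in both seasons. Benjamini-Hochberg adjustment ran over all genes of a test, and 95% intervals are unadjusted. Scripts were tested on simulated data. Folds are on the log2(FPKM + 1) scale and understate low genes. Tables and figures used Python 3.11.15. Sun times used the NOAA equations at 35.0 degrees N and 137.2 degrees E. The dates are the June solstice and the September equinox, as the mean of 2018 and 2019.

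Symbols and product names gave the list members, and 29 matches were removed after their names were read. Any tested member could be named, and beside them, at 5 FPKM or more on average, with an amplitude of at least 0.3 in both seasons and a name, the 10 largest called shifts each way. The 10 smallest p of the curve difference and the 5 largest amplitudes of each window could also be named. Members, lists and tests were chosen with earlier results of these data known. Alternatives covered the pseudocount, filter, scaling, weights, a 12 h harmonic, all 48 libraries, other windows and libraries left out. A straight line in the model and fixed genes were added after the data were seen.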

Additional observations from a re-analysis of the deposited data

Results flagged for a closer look

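The daily curve differed between summer and autumn in 18 genes (0.108% of 16597), by an F test in limma that leaves the season means free. Of these, 6 were clock activators or repressors: bhlhe41 and LOC101159313 (adjusted p = 0.0029 each), LOC101172430 (0.0054), LOC101174183 and LOC101170052 (0.011 each) and LOC101173939 (0.016). Their peaks moved later by 1.38 to 1.86 h, as described above for each.

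The other 12 included 9 with a rhythm in both seasons. The shift of the adhesion gene ninjurin-2, LOC101162567 (adjusted p = 0.0054), was close to a reversal of the day, from 7.49 to 18.89, with amplitudes of only 0.20 and 0.25. c8h16orf58 (0.0054) moved from 23.14 to 7.07, and gamma-adducin of the membrane skeleton, LOC101170613 (0.012), from 11.25 to 17.44. The polyamine enzyme odc1 (0.016) moved from 18.18 to 0.22, with 22.14 and 17.13 FPKM at hour 18 of summer and 24.05 and 23.63 at hour 2 of autumn. mgea5, which removes O-GlcNAc from proteins (0.045), moved from 20.12 to 0.14, citron kinase LOC101170523 (0.045) from 14.85 to 18.37, and LOC101164857 (0.048) from 11.88 to 16.38. By the shorter way around the clock, the HTRA2-like protease LOC101174474 (0.012) peaked earlier in autumn, at 15.69 and 8.31. So did the alanyl-tRNA synthetase aars (0.019), at 19.04 and 9.76. With a straight line in the model the shift calls of LOC101162567, LOC101170613, odc1, mgea5, LOC101164857 and LOC101174474 did not hold. Those of LOC101162567 and c8h16orf58 did not hold with all 48 libraries in the fit. Without replicate 1 and without replicate 2 the shift calls of aars, LOC101170523 and the other genes of this paragraph missed the threshold. Those fits hold 1 library per hour.

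For 3 genes a rhythm passed in 1 season alone. slc1a4, a carrier of small neutral amino acids (0.011), had an amplitude of 0.11 in summer and 0.42 in autumn, and phgdh of serine synthesis (0.012) had 0.09 and 0.31. Both were highest near hour 6 to 10 of autumn, phgdh with 23.75 and 23.25 FPKM at hour 6 and 27.23 and 23.71 at hour 10 against 18.35 and 16.82 and 15.94 and 19.21 in summer. nfya, a subunit of the CCAAT-binding factor (0.015), went the other way, with 0.43 and 0.04. It read 15.12 and 15.49 FPKM at hour 18 of summer and 9.29 and 8.39 in autumn. In each hour there were 2 libraries per season, too few to look for a library that stands apart.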

How the results depend on the processing

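Under a pseudocount of 0.1, no filter, a mean FPKM of at least 5, median-ratio scaling and quantile normalization, every count of calls stayed within 1.5 times its value, and the median shift of all genes was 0.394 to 0.60 h. Counts moved more in other models. With all 48 libraries in the fit, 97 curves differed and 163 shifts passed, 109 later and 54 earlier, with 11 amplitude differences. With a 12 h harmonic these were 80 curves, 221 shifts, 137 later and 84 earlier, and 10 amplitudes. The shift differed from that of sunrise in 177 genes with all 48 libraries and in 240 with the harmonic. Array weights gave 36 curves and 3 amplitudes, and the clock hour as a factor 84 curves. A straight line over the sampling day, added after the data were seen, left 835 genes rhythmic in summer, 449 in both seasons, 5 curves, 28 shifts, 24 later and 4 earlier, 26 genes off the sunrise shift and 143 off the sunset shift. Requiring an amplitude of at least 0.3 gave 35 shifts, 32 later and 3 earlier. The nested F test gave 64 shifts, 50 later and 14 earlier. The sample titles carry numbers shared by the seasons, and deviations of same-numbered libraries correlated by -0.162 to 0.132 across genes. These values gave no sign of a pairing but cannot exclude it, and the labels do not state one. With the replicate block 7 curves differed. Leaving out 1 library, or every library 1 or every library 2, gave ranges of 0 to 26 curves, 67 to 2112 rhythmic genes in autumn, 100 to 1805 in summer and 43 to 840 in both, 8 to 125 shifts, 8 to 82 later and 0 to 56 earlier, and 0 to 3 amplitudes. The same ranges were 0 to 157 genes off the sunrise shift, 32 to 363 off the sunset shift, and medians of 0.281 to 0.840 h over all genes, -0.234 to 0.804 at dawn, 0.434 to 0.846 by day, 0.267 to 1.39 at dusk and 1.42 to 2.19 at night. The low ends of the counts come from the fits with 1 library per hour. Earlier shifts numbered 56 and 44 without library 1 or 2 of autumn hour 10, 11 and 13 without library 1 or 2 of autumn hour 14, 12 without library 1 of summer hour 18 and 13 without library 2 of autumn hour 2. Genes off the sunrise shift numbered 157 without library 1 of autumn hour 10, and 54, 41 and 58 without library 1 of autumn hour 14, library 1 of summer hour 18 or library 2 of summer hour 10. Among medians, that of all genes was 0.60 h with no filter and 0.316 h with all 48 libraries and with the harmonic, and 0.628 h with the same genes and no library 2. The dawn median turned to -0.111 h with all 48 libraries, -0.109 h with the harmonic and -0.0599 h with the same genes and no library 1. By day it was 0.764 h with no filter, 0.694 h at 5 FPKM, 0.723 h and 0.736 h under the 2 scalings, 0.504 h with all 48 libraries, 0.759 h and 0.325 h with windows by the summer or the autumn peak, and 0.715 h with the same genes and no library 2. At dusk it was 0.593 h with no filter, 0.290 h with all 48 libraries, 0.175 h with the harmonic, 0.554 h with array weights, 0.255 h and 0.877 h with windows by the summer or autumn peak, and 0.518 h with the same genes and no library 2. At night it was 2.30 h with array weights. The ninjurin-2 shift, near 12 h, changed sign to -11.92 h without library 2 of summer hour 14. The cause of these changes was not tested. Depth is unknown, sampling was every 4 h over 1 cycle, and a drift over the day cannot be told from a rhythm.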

Other observations

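Some genes had daily profiles that a peak hour shift alone does not describe. The thyrotropin beta gene LOC105354380, of the pituitary hormone that drives the thyroid, was near its detection floor at all hours of summer, between 0.34 and 1.96 FPKM. In autumn it read 9.71 and 17.3 FPKM at hour 22, 5.43 and 6.8 at hour 2, and 0.18 to 2.52 at the other hours. Its autumn rhythm passed (limma adjusted p = 0.0011), its summer rhythm did not (adjusted p = 0.58), and the difference of the curves missed the threshold (adjusted p = 0.09).

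cabp5, a calcium-binding protein of neurons, peaked at midday in both seasons, at 12.03 and 11.61, with amplitudes of 0.65 and 1.55. Its 2 libraries at hour 10 read 8.42 and 11.53 FPKM in summer and 39.18 and 32.18 in autumn, while at hour 22 they read 3.46 and 3.96 and 4.83 and 3.69. The amplitude difference had an unadjusted p of 0.00097 and an adjusted p of 0.13 in limma.

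The NR1D2-type gene LOC101156434 had a summer rhythm, with amplitudes of 0.93 in summer and 0.31 in autumn (unadjusted p = 0.012). Its evening values were 5.96 and 10.3 FPKM at hour 18 of summer and 16.98 and 19.36 in autumn. The same hour was higher in autumn in the PER2-type gene LOC101161338 and the NR1D1-type gene LOC101174341, whose values stand with the repressors.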
